A study of Rattus norvegicus with 6 samples.

Results

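The cytosolic ribosomal protein genes were followed through nuclei of the rat ileum, as 103 of the 28282 gene symbols in the count tables. A symbol was taken when it read Rpl or Rps directly followed by a digit, or was Rpsa, Rplp0, Rplp1 or Rplp2. Symbols with -ps, which mark pseudogenes, and the Rps6k kinases were left out. The 103 symbols comprised 46 core proteins of the large (60S) subunit, 31 core proteins of the small (40S) subunit, 7 paralogs with names of their own, 18 numbered copies of a core gene, and Rps19bp1, which encodes a protein that binds Rps19 and is no part of the ribosome. Fau and Rack1, which encode further constituents of the ribosome, have names that the rule did not reach, and they are described among the other genes of translation.

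Nuclei came from the ileum of 6 male, wild-type Sprague-Dawley rats aged 6 weeks, with 1 rat per library. Severe acute pancreatitis (SAP, 3 rats) was induced by infusing 3% sodium taurocholate, a bile salt, backwards into the pancreatic duct in a volume of 0.1 mL for every 100 g the rat weighed. The control rats (CON, 3 rats) had their abdomen opened without an infusion, and the ileum of every rat was taken 24 h later. The ileum is thus a distant organ in this model, and it was not itself treated. UMIs (unique molecular identifiers, 1 per captured RNA molecule) were counted per gene and barcode.

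Of 90461 barcodes, 40970 passed the limits of at least 1200 UMIs, at least 500 genes and at most 5% mitochondrial UMIs. The 6 libraries held 3189 to 9246 passing nuclei each, with 5549260 to 28771508 UMIs in all and a median of 1516 to 1889.5 UMIs per nucleus. Nuclei were clustered without the ribosomal protein genes, and clusters were called X-like from lists of markers. The 15 classes with at least 10 nuclei in every library were compared. The libraries stood apart in 2 ways that every comparison below shares. CON replicate 2 and SAP replicate 1 alone listed barcodes under 1000 UMIs, and mitochondrial transcripts took 0.692%, 0.171% and 0.410% of UMIs in CON replicates 1, 2 and 3 against 1.97%, 1.42% and 0.691% in SAP. Values of 3 libraries are given in this order of replicates throughout.

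A ribosomal protein mRNA is made and spliced in the nucleus and exported to the cytoplasm, where most of it resides. Its protein returns to the nucleolus, where it is assembled with ribosomal RNA into the 40S subunit, which decodes the mRNA, or the 60S subunit, which forms the peptide bond. Most vertebrate ribosomal protein mRNAs begin with a C followed by an uninterrupted run of pyrimidines, the 5′ terminal oligopyrimidine (TOP) motif, through which mTORC1 signalling and the protein LARP1 regulate their translation together with that of several translation factors. The smooth muscle and the secretory Paneth cells of the intestine are known for a large output of contractile and antimicrobial protein.

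The start windows of the genes show a sequence that many of the core members have and that the choice by name did not use. Each window is 30 bases of RefSeq sequence (assembly GRCr8, on the strand of the gene, with the annotated start as its base 16). A run was a C followed directly by at least 4 bases that were each C or T, with its C at most 5 bases to either side of the annotated start. It is written in capitals. Only the strand of the gene was searched. The first set below holds core members with a run, among them the stalk proteins Rplp0 and Rplp1 and members whose changes are described further on. Rplp2, also of the stalk, is not in the set, since its window has no run so defined.

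Rplp0, chr12:46718376-46718405, minus strand: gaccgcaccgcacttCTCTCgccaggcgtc
Rplp1, chr8:71290858-71290887, minus strand: gcaggcgcatgtgatCCTTTCCTCagctgc
Rpl10, chrX:157205835-157205864, plus strand: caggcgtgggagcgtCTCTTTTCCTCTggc
Rpl31, chr9:49143096-49143125, plus strand: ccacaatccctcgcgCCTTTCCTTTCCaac
Rps27, chr2:177964592-177964621, minus strand: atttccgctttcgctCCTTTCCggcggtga
Rps21, chr3:187724023-187724052, plus strand: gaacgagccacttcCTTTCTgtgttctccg
Rpl4, chr8:73566462-73566491, plus strand: taagttcttcCTTTTCCTgtgggagcagcc
Rpl36a, chrX:102059434-102059463, plus strand: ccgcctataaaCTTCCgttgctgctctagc

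The next set is shown for contrast, since it holds copies and paralogs whose own windows have no run: the numbered copies Rpl10l1 and Rpl5l1, and the paralogs Rps27l and Rpl7l1. The window of Rpl5, the core gene of Rpl5l1, has no run so defined either. Other copies and paralogs do have a run, namely Rpl30l2, Rpl31l2, Rps12l2 and Rps4y2.

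Rpl10l1, chr6:90281968-90281997, minus strand: tttggtctccattttgctgctggcggtgag
Rpl5l1, chr9:121530570-121530599, minus strand: taattggcctccgcagttgcgggtctctgt
Rps27l, chr8:76443643-76443672, plus strand: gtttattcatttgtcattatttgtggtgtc
Rpl7l1, chr9:21695703-21695732, plus strand: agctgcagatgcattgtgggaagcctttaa

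RefSeq windows matched 62 of the 77 core symbols, with 63 windows, of which 40 (63.5%) held a run. The share over all 33469 windows of the table was 17.0%. A run with its C exactly at the annotated start was found in 24 of the 63 core windows (38.1%), against 2.63% of all windows. Of 19 windows of members outside the core, 4 held a run (21.1%), and the mitochondrial ribosomal protein genes, whose products serve the other ribosome of the cell, stood at 24.2%. Of 14 windows of translation factors and other TOP mRNAs, a list described further on, 5 held a run (35.7%). In 0 of these windows was its C exactly at the annotated start. Windows without a run include those of core genes such as Rps2, Rpl41 and Rplp2, and the absence says only that this definition was not met. In the window of Rps2, C and T alone fill the bases up to the annotated start. None of its C within 5 bases of the start is followed by 4 of them. The windows of Rpl5 and Rplp2 hold such stretches further upstream, where no run was searched.

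Ribosomal protein genes gave 3.07%, 0.687% and 0.974% of all UMIs in CON and 3.62%, 1.25% and 1.73% in SAP. Replicate 1 was the highest library of each group and replicate 2 the lowest, and the groups overlapped. The mean share was 1.58% ± 1.30 in CON and 2.20% ± 1.25 in SAP (SD, n = 3 each), a difference of 0.623 percentage points (exact two-sided permutation test, p = 0.5, where the smallest p that 3 against 3 allows is 0.1). Replicate numbers were taken as pairs from the correlation of these same libraries, and no label states a pairing. Set against the control of the same replicate number, the share in SAP was 1.18-fold, 1.82-fold and 1.77-fold, so it was higher in 3 of 3 pairs (exact sign-flip permutation test, p = 0.25, the smallest that 3 pairs can give). Binomial counting error was small beside this, with 95% Wilson intervals as narrow as 3.06% to 3.07% in CON replicate 1.

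The difference between groups depended on single libraries and on the limit for mitochondrial UMIs. Without SAP replicate 1 it was −0.0876 percentage points. At a limit of 1% mitochondrial UMIs, 12.0% of the nuclei of SAP replicate 1 were kept, the shares were 2.84%, 0.656% and 0.796% in CON and 2.84%, 0.937% and 1.35% in SAP, and the difference was 0.279 percentage points. The mitochondrial share was itself higher in SAP in 3 of 3 pairs, and its part in the result was not tested. In nuclei, UMIs from RNA made in the nucleus and from cytoplasmic RNA carried along with it cannot be told apart by these counts.

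**Figure D1:**
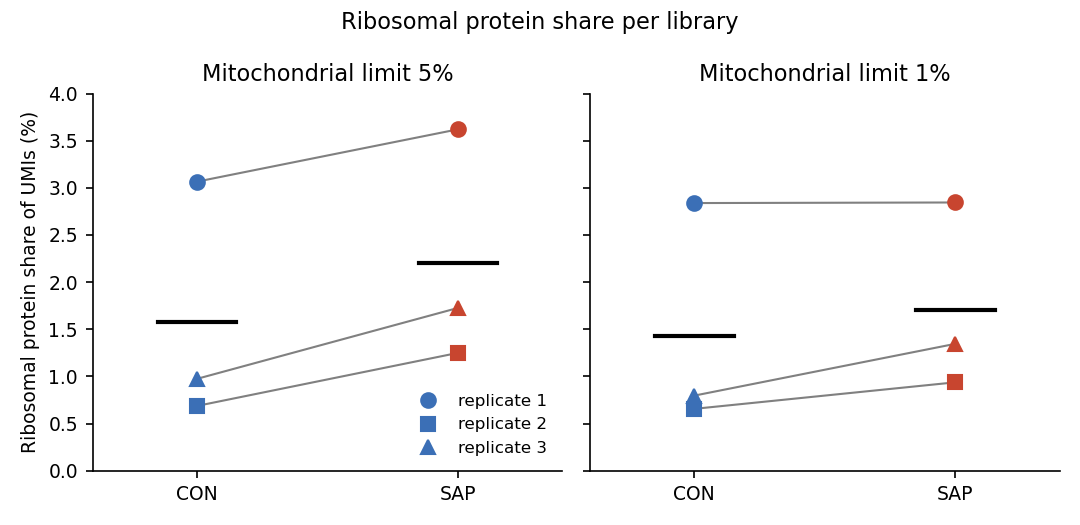
Share of UMIs (%) from ribosomal protein genes in each library, with 1 point per rat, lines between libraries of the same replicate number and bars at the group means, for mitochondrial limits of 5% (left) and 1% (right). At 5% each of the 3 lines goes up from CON to SAP, while at 1% the line of replicate 1 is nearly level, at 2.84% in both.

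Barcodes that failed the limits were read in the same way, but they were unlike sets between libraries. Of the failed barcodes, 15242 of 17654 in CON replicate 2 and 20899 of 23026 in SAP replicate 1 had under 1000 UMIs. No other library listed such barcodes. Their ribosomal protein share was 3.65%, 0.743% and 1.17% in CON rats, and 5.46%, 1.65% and 1.79% in SAP rats, above that of the passing nuclei in every library. The libraries fell in the same order as by their passing nuclei.

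Both subunits had a higher mean share in SAP, with overlapping groups. The 46 large-subunit genes gave 0.870% ± 0.749 of UMIs in CON and 1.17% ± 0.685 in SAP, and the 31 small-subunit genes 0.680% ± 0.537 and 0.999% ± 0.558 (SD, n = 3 each; exact two-sided permutation test, p = 0.5 for each). The number of large-subunit UMIs per small-subunit UMI was 1.336, 1.214 and 1.156 in CON rats, and 1.196, 1.173 and 1.115 in SAP rats. It was lower in SAP in 3 of 3 pairs, with overlapping groups (exact two-sided permutation test, p = 0.3).

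Gene by gene, no member passed the test over all nuclei. With edgeR's quasi-likelihood test on UMIs summed per library, 94 members had enough counts to be tested, and 0 were called at an adjusted p under 0.05 with a log2 fold change of at least 0.5 in size, as were 0 of all 19187 genes tested (0%). DESeq2 also called 0 members, beside 1.12% of all genes. At an unadjusted p under 0.05 stood 1 member, against 8.43% of all genes. The fitted fold change was above 0 for 86 of the 94 members, against 52.2% of all genes, and the median log2 fold change of the members was 0.33 beside 0.02 for all genes. By CPM (UMIs of a gene per 1e6 UMIs of the library, scaled by TMM, which evens out differences in composition between libraries), 58 members were higher in SAP in each of the 3 pairs, against 18.4% of all genes, and 1 member had groups that did not overlap, against 4.9% of all genes. Of the core, 42 of 46 large-subunit genes (median 0.28) and 31 of 31 small-subunit genes (median 0.42) had a fitted fold change above 0.

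These members share their libraries, and the median moved with them. It was 1.67 without CON replicate 1, −0.06 without CON replicate 2, −0.01 without CON replicate 3, −0.34 without SAP replicate 1, 0.60 without SAP replicate 2 and 0.62 without SAP replicate 3. With the replicate number as a block it was 0.62, and at the 1% mitochondrial limit it was −0.01, with 45 of 93 members above 0 against 54.1% of all genes. With a term for the libraries that listed barcodes under 1000 UMIs the median was 0.19. In that fit 71 of 94 members were above 0, against 9785 of 19187 genes.

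**Figure D2:**
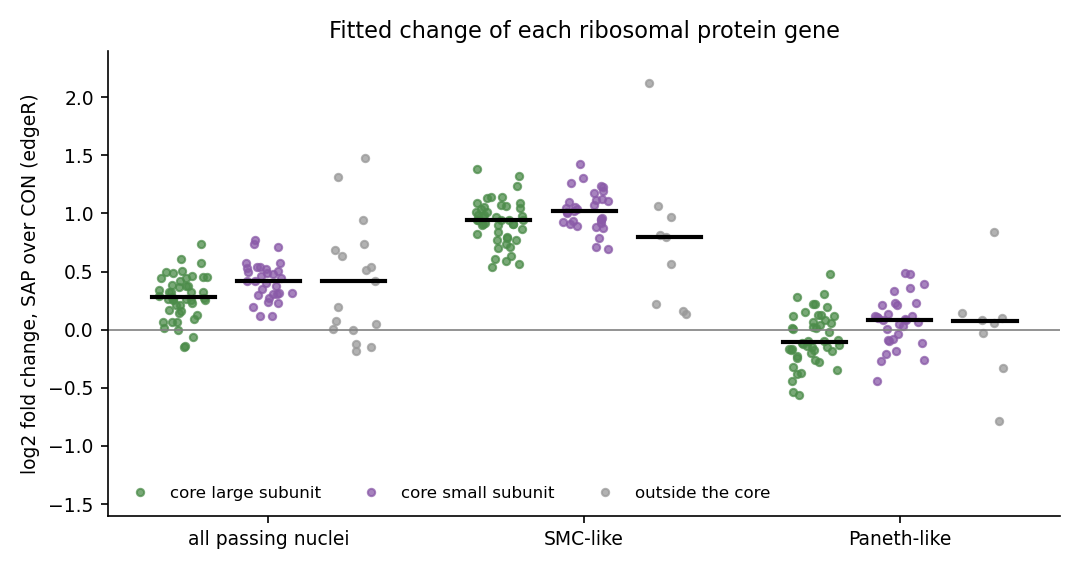
Log2 fold change of SAP over CON (edgeR) for each tested ribosomal protein gene, with core large-subunit, core small-subunit and other members side by side over all nuclei, in SMC-like and in Paneth-like nuclei, and bars at the medians. All 86 points of SMC-like nuclei lie above 0, while in Paneth-like nuclei 45 of 85 do.

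The acidic stalk of the large subunit, which recruits elongation factors, is built on Rplp0 with Rplp1 and Rplp2. Rplp1 stood at 1253 CPM, 154 CPM and 205 CPM in CON and at 1465 CPM, 622 CPM and 376 CPM in SAP. Rplp0 stood at 665 CPM, 124 CPM and 140 CPM in CON and at 760 CPM, 331 CPM and 213 CPM in SAP. Rplp2 stood at 541 CPM, 136 CPM and 246 CPM in CON and at 725 CPM, 236 CPM and 417 CPM in SAP. All 3 genes were higher in SAP in each pair and overlapped between groups, with log2 fold changes of 0.61 ± 0.82, 0.49 ± 0.72 and 0.58 ± 0.56 (SE; edgeR, adjusted p = 0.891, 0.898 and 0.846). Rpl41, which encodes a very short basic peptide of the large subunit, took 5.14% of the UMIs of all members, with 1925 CPM, 369 CPM and 485 CPM in CON and 1987 CPM, 507 CPM and 827 CPM in SAP. UMIs were counted without a correction for length, so such shares give no order of transcript levels between genes.

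On the small subunit, Rpsa, which is also known as the laminin receptor precursor, stood at 866 CPM, 170 CPM and 262 CPM in CON and at 999 CPM, 488 CPM and 388 CPM in SAP. Its log2 fold change was 0.53 ± 0.62 (SE; edgeR, adjusted p = 0.875). Among the 5 largest fold changes of all tested members were Rps3a and Rps14, both of the small subunit. Rps3a stood at 468 CPM, 96.9 CPM and 115 CPM in CON and at 731 CPM, 251 CPM and 179 CPM in SAP (log2 fold change 0.77 ± 0.72, SE). Rps14, which lies at the platform of the 40S subunit, stood at 571 CPM, 124 CPM and 179 CPM in CON and at 701 CPM, 451 CPM and 309 CPM in SAP (0.74 ± 0.58, SE). In both genes SAP was higher in each pair, and CON replicate 1 exceeded SAP replicates 2 and 3 so that the groups overlapped. The edgeR adjusted p was 0.838 for Rps3a and 0.793 for Rps14.

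At the other end, the 5 smallest fold changes held 2 core genes, both of the large subunit. Rpl12, a protein at the base of the stalk, stood at 692 CPM, 133 CPM and 107 CPM in CON and at 583 CPM, 119 CPM and 138 CPM in SAP, higher in SAP in 1 of 3 pairs (log2 fold change −0.15 ± 0.84, SE). Rpl31, which lies near the exit of the nascent peptide, stood at 276 CPM, 30.4 CPM and 39.4 CPM in CON and at 219 CPM, 31.2 CPM and 65.1 CPM in SAP (−0.14 ± 0.94, SE). Neither passed (edgeR, adjusted p = 0.979 and 0.982), and the groups overlapped in both. The other 3 were Rpl31l4, Rps27l and Rpl7l1, with log2 fold changes of −0.18, −0.15 and −0.13.

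Core genes with a run as defined above and those without had close medians. The split follows that definition only, and it places genes such as Rps2 among those without. The median log2 fold change over all nuclei was 0.33 in the 40 core genes with a run and 0.33 in the 22 without, and in SMC-like nuclei it was 0.94 and 1.01.

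The paralogs encode proteins that resemble a core protein. Rpl7l1, a nucleolar relative of Rpl7, stood at 43.7 CPM, 41.6 CPM and 28.2 CPM in CON and at 43.2 CPM, 29.3 CPM and 31.7 CPM in SAP, while Rpl7 stood at 488 CPM, 73.2 CPM and 87.5 CPM in CON and at 483 CPM, 209 CPM and 122 CPM in SAP. The paralog thus spanned a narrower range of CPM over the libraries than its partner. Rps27l, a p53 target, stood at 66.0 CPM, 17.6 CPM and 17.9 CPM in CON and at 53.8 CPM, 17.0 CPM and 21.6 CPM in SAP, higher in SAP in 1 of 3 pairs. Its partner Rps27 stood at 433 CPM, 74.5 CPM and 116 CPM in CON and at 527 CPM, 152 CPM and 230 CPM in SAP, higher in 3 of 3. The difference between partners was not tested.

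Rpl22l1 gave 12.3 UMIs for every 100 of Rpl22, with 8.68 to 13.3 over the libraries, and had a log2 fold change of 0.08 ± 0.58 beside 0.28 ± 0.50 for Rpl22 (SE). Rpl26l1 stood at 2.55 to 4.18 CPM in all 6 libraries, a range in which the groups overlapped, while Rpl26 ran from 37.9 to 242 CPM. Rps4y2 stood at 10.95 CPM, 4.95 CPM and 4.05 CPM in CON and at 9.99 CPM, 9.07 CPM and 9.54 CPM in SAP, beside Rps4x at 361 CPM, 32.5 CPM and 35.0 CPM and at 342 CPM, 110 CPM and 51.8 CPM. Rpl3l, the form of Rpl3 known from striated muscle, had 43 UMIs in all against 19805 for Rpl3, and Rpl39l, known from the testis, had 1 UMI against 6901 for Rpl39; neither was tested. The tested paralogs had edgeR adjusted p-values of 0.821 or more, and 3 of these 5 had a fitted fold change above 0.

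The numbered copies are near relatives of a core gene, and reads could be divided between copy and core gene by the counting, so their values are uncertain. Rpl10l1 was the 1 member whose groups did not overlap, with 1.38 CPM, 0.768 CPM and 1.36 CPM in CON and 3.401 CPM, 3.399 CPM and 2.14 CPM in SAP. These values rest on 9 to 54 UMIs per library. The log2 fold change was 1.31 ± 0.48 (SE; edgeR, adjusted p = 0.555). Rpl10 itself had a log2 fold change of 0.38 ± 0.76 (SE), with overlapping groups. The largest fitted fold change of any member was that of Rps18l1, 1.48 ± 1.01 (SE; edgeR, adjusted p = 0.749), at 3.29 CPM, 1.19 CPM and 0.330 CPM in CON and 8.72 CPM, 4.67 CPM and 0.673 CPM in SAP.

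Several copies followed the replicate number more than the group. For each 100 UMIs of Rpl5, the copy Rpl5l1 gave 6.00, 7.36 and 0.506 UMIs in CON and 7.23, 13.3 and 0.552 UMIs in SAP. Replicate 3 of both groups was lowest. The same held for Rpl37l1 per 100 UMIs of Rpl37, with 3.57, 5.33 and 0.621 in CON and 2.92, 6.81 and 0.620 in SAP, and for Rps18l1, Rps15al4 and Rpl30l2. Rpl30l2 reached 46.7, 41.2 and 24.5 UMIs per 100 of Rpl30 in CON and 50.1, 72.0 and 21.8 in SAP. It was otherwise for Rpl36al1, at 57.3, 90.6 and 86.9 UMIs per 100 of Rpl36a in CON and 42.6, 85.4 and 72.2 in SAP, where replicate 1 was lowest. These copies were chosen after their values were seen.

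**Figure D3:**
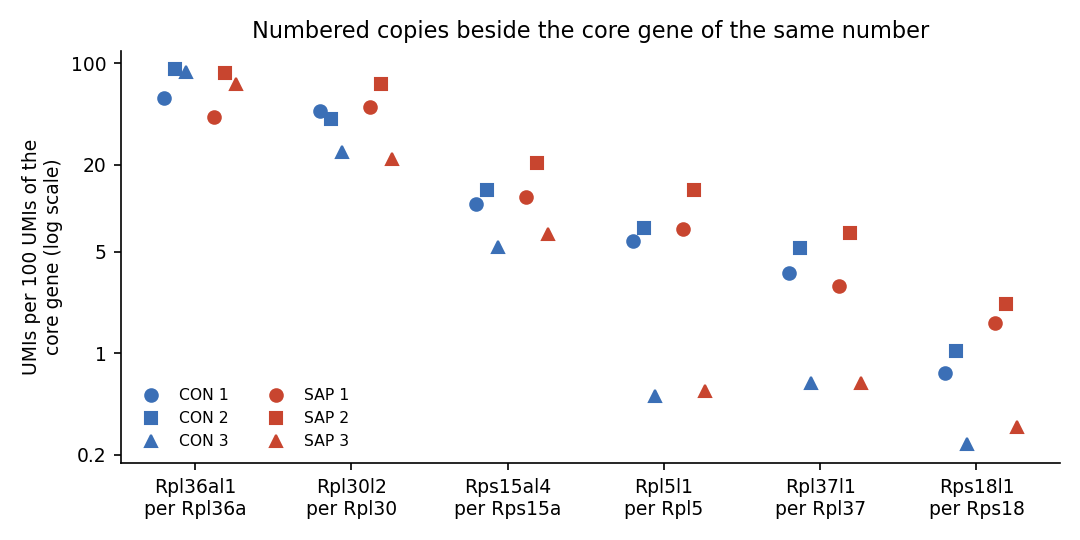
UMIs of 6 numbered copies per 100 UMIs of their core gene in each library, on a log axis, with CON and SAP marked. Replicate 3 of both groups is lowest for 5 of the 6 copies, and for Rpl36al1 it is replicate 1.

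Between cell classes, SMC-like nuclei (smooth muscle) and Paneth-like nuclei had the highest ribosomal protein share and enterocyte-like nuclei, the absorptive lining of the villus, the lowest. In SMC-like nuclei (1900 in all) the share was 3.51%, 1.14% and 2.11% in CON rats, and 5.49%, 2.91% and 4.94% in SAP rats. In Paneth-like nuclei (2507) it was 4.76%, 0.837% and 1.57% in CON rats, and 5.20%, 2.92% and 3.19% in SAP rats. In enterocyte-like nuclei (9823) it was 1.90%, 0.503% and 0.742% in CON rats, and 2.85%, 0.996% and 0.891% in SAP rats. Against all other nuclei of the same library, the SMC-like share was 1.99-fold and the Paneth-like share 1.73-fold, both higher in 6 of 6 libraries, and the enterocyte-like share 0.633-fold, lower in 6 of 6. Each of the 3 reached the smallest p that 6 libraries can give (exact two-sided sign-flip permutation test, p = 0.0312). None passed the correction over the 15 classes (adjusted p = 0.156). At that smallest p a class can pass only if most of the classes reach it together, so the correction decides nothing about these 3. The top of the order changed with the clustering. At resolution 0.4 endothelial-like nuclei came next to SMC-like nuclei (1.21-fold). The Paneth-like class was there a cluster of 1825 nuclei led by Gfra4, Kif19, Habp2 and Mmp7. At resolution 1.2 an unnamed cluster led (3.40-fold) before SMC-like nuclei (1.98-fold). Its top genes were alpha-defensin genes such as Defa24, and Paneth markers gave its highest score (1.66, against 1.28 for goblet markers). Without integration fibroblast-like nuclei led (1.71-fold) before SMC-like nuclei (1.53-fold). Enterocyte-like nuclei were lowest in all 3. By mitochondrial share, averaged over the libraries at resolution 0.8, the SMC-like class also ranked first (1.14%). Its value exceeded that of all passing nuclei in each library. The Paneth-like class ranked next (1.051%). The enterocyte-like class, last by ribosomal protein share, had nearly as much (1.048%). At the 1% mitochondrial limit neither class was higher in 6 of 6 libraries. The Paneth-like share then lay below that of all nuclei kept in CON replicate 2 (0.607% against 0.656%) and CON replicate 3 (0.734% against 0.796%). The SMC-like share did so by little in CON replicate 1 (2.83% against 2.84%). In the remaining libraries each class stayed above all nuclei kept, with 10 SMC-like and 23 Paneth-like nuclei left in SAP replicate 1. What the mitochondrial share contributes to the order of classes was not tested.

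The other 12 classes lay between 0.769-fold and 1.07-fold of the rest, in the order endothelial-like, stem-like, goblet-like, enteroendocrine-like, B-like, TA-like (transit-amplifying), fibroblast-like, the unnamed cluster 10, tuft-like, macrophage-like, T-like and NAC-like (named from neuronal and glial markers). Tuft-like and NAC-like nuclei were above the rest in 1 of 6 libraries (exact sign-flip permutation test, p = 0.0625, adjusted p = 0.188). None of the 14 pairs of neighbours in the whole order of 15 passed, in a design where 6 libraries do not let a single pair pass the correction (exact sign-flip permutation test, adjusted p of 0.875 or more). The widest step was Paneth-like over endothelial-like nuclei, 0.62 on the log2 scale and higher in 5 of 6 libraries (exact sign-flip permutation test, p = 0.0625). Beside the barcodes that failed the limits in the same library, SMC-like and Paneth-like nuclei had the higher share in 5 of 6 libraries, while enterocyte-like, TA-like, fibroblast-like and tuft-like nuclei had it in 0 of 6. Those barcodes were unlike sets, mostly under 1000 UMIs in CON replicate 2 and SAP replicate 1 alone.

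**Figure D4:**
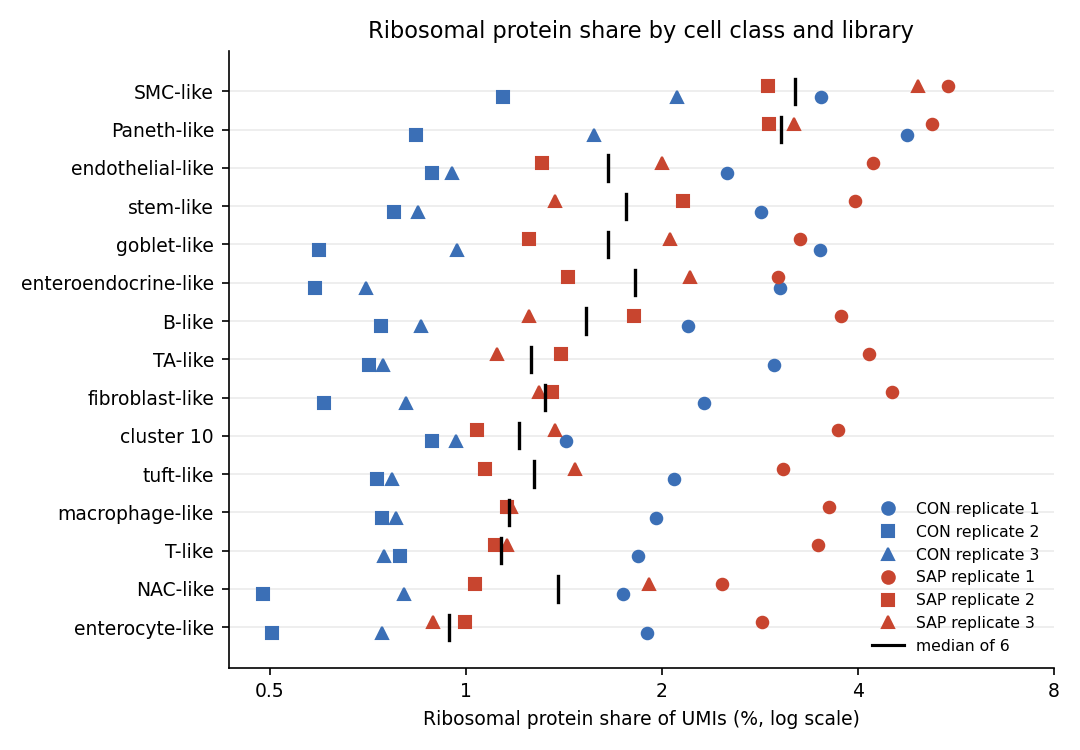
Share of UMIs (%) from ribosomal protein genes in each of the 15 classes, with 1 point per library on a log axis and a bar at the median of the 6, ordered by the mean share relative to all other nuclei. SMC-like and Paneth-like nuclei lead and enterocyte-like nuclei come last, while the spread between libraries of 1 class exceeds the steps between neighbouring classes.

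Within the Paneth-like class the share was not even. Cluster 14, led by alpha-defensin genes, stood at 5.30%, 3.02% and 3.76% in CON and at 6.81%, 5.51% and 6.57% in SAP, over 681 nuclei. Cluster 7, led by Gfra4, Kif19, Habp2 and Mmp7, stood at 4.64%, 0.499% and 0.817% in CON and at 4.04%, 2.24% and 2.04% in SAP, over 1826 nuclei. Without cluster 7, the Paneth-like share was 3.32-fold that of the rest. In CON replicates 2 and 3, cluster 7 lay below the nuclei outside the Paneth-like class, which stood at 0.675% and 0.935%. In these libraries the class was thus above the rest only through cluster 14, while in the others cluster 7 was above as well. Cluster 14 was also the 1 of 19 clusters in which the groups did not overlap, a cluster looked up after its values were seen, with means of 4.03% ± 1.16 in CON and 6.30% ± 0.69 in SAP (SD, n = 3 each; exact two-sided permutation test, p = 0.1, the smallest possible, adjusted p = 0.594 over the clusters). Leaving out each library in turn kept that difference between 1.77 and 2.91 percentage points. Its mitochondrial share did not overlap either, at 0.861%, 0.627% and 1.35% in CON and 2.87%, 2.83% and 2.14% in SAP. This was so in 11 of the 19 clusters, and its part in the result was not tested. In each library the mitochondrial share of cluster 14 also exceeded that of all passing nuclei. Cluster 7 had 0.477%, 0.120% and 0.296% in CON and 1.87%, 1.42% and 0.611% in SAP, above all passing nuclei in no library. Whether this bears on the difference between these clusters was not tested.

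Most core genes followed the order of the classes. Of the 77, 58 had their highest mean log2 CPM in SMC-like nuclei, 18 in Paneth-like nuclei and 1 in stem-like nuclei, and the lowest was in enterocyte-like nuclei for 42 and in NAC-like nuclei for 28. The 5 core genes with the widest range over classes were Rpl30, Rpl36a, Rps25, Rpl4 and Rpl3. For all but Rpl4 the lowest class had a library with 0 CPM, which widens the range. That class was NAC-like for Rpl30, Rps25 and Rpl3, with 10 to 140 nuclei per library, and fibroblast-like for Rpl36a. Rpl30, a large-subunit protein, ran from 187 ± 97.8 CPM, here without TMM, in SMC-like to 39.5 ± 32.3 CPM in NAC-like nuclei (SD, n = 6 libraries), a range of 2.38 on the scale of log2(CPM + 5). Rpl36a ran over 2.12 from SMC-like to fibroblast-like nuclei. Rpl4 and Rpl3, both of the large subunit, were highest in Paneth-like nuclei, Rpl4 with 361 ± 194 CPM against 97.8 ± 68.9 CPM in enterocyte-like nuclei. Rps25, a small-subunit protein, had 87.1 ± 44.0 CPM in SMC-like nuclei. Outside the core, Rpl7l1 was highest in stem-like and Rps19bp1 in TA-like nuclei.

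Between groups, every class had a higher mean share in SAP, and in 13 of 15 classes it was higher in 3 of 3 pairs. The exceptions were goblet-like and enteroendocrine-like nuclei, with 2 of 3. The pair fold averaged from 1.53 in enterocyte-like to 2.11 in SMC-like nuclei, where the means were 2.25% ± 1.19 in CON and 4.45% ± 1.36 in SAP (SD, n = 3 each). No class passed (exact two-sided permutation test, p of 0.2 or more, adjusted p of 0.536 or more), and CON replicate 1 overlapped SAP in each. The classes come from the same 6 rats and are not independent. With the same weight for every class in each library the difference over all classes was 0.959 percentage points, against 0.623 without (exact two-sided permutation test, p = 0.4).

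The size of the SAP effect was also compared between compartments. The log2 ratio of the epithelial to the immune share was 0.14 lower in SAP than in CON, that of epithelial to stromal 0.47 lower and that of immune to stromal 0.33 lower (exact two-sided permutation tests, p = 0.8, 0.5 and 0.5). The stromal share itself stood at 2.83%, 0.946% and 1.53% in CON and at 4.96%, 2.09% and 3.41% in SAP.

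In SMC-like nuclei each tested member had a fold change above 0, and no single member was called. Of 86 tested members, 86 had a fitted fold change above 0, against 49.1% of all 9959 genes tested, and the median log2 fold change was 0.95 beside −0.01 for all genes. With edgeR, 0 members were called, against 0.131% of all genes, and 38 had an unadjusted p under 0.05, against 12.7% of all genes. By CPM, 82 members were higher in each pair, against 19.2% of all genes, and 11 did not overlap between groups, against 8.75% of all genes. The 11 were Rps2, Rpl4, Rplp0, Rps3a, Rps20, Rpsa, Rps14, Rpl8, Rpl38, Rpl18 and Rpl22l1.

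Rps2, at the entrance of the mRNA into the small subunit, stood in SMC-like nuclei at 662 CPM, 223 CPM and 367 CPM in CON and at 1642 CPM, 915 CPM and 844 CPM in SAP. Every SAP library was above every CON library. The log2 fold change was 1.43 ± 0.45 (SE; edgeR, adjusted p = 0.217). Rpl4, whose long loop reaches into the peptide tunnel, stood at 204 CPM, 75.3 CPM and 164 CPM in CON and at 592 CPM, 280 CPM and 333 CPM in SAP, again without overlap (1.39 ± 0.39, SE; edgeR, adjusted p = 0.188). Rplp0 stood at 491 CPM, 178 CPM and 340 CPM in CON and at 1239 CPM, 683 CPM and 641 CPM in SAP (1.32 ± 0.42, SE). Rps3a stood at 523 CPM, 217 CPM and 321 CPM in CON and at 1351 CPM, 566 CPM and 740 CPM in SAP (1.31 ± 0.42, SE). These CPM, too, are scaled by TMM.

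Calls with the block rest on a pairing that was taken from these same counts. With the replicate number as a block, edgeR called 4 members in SMC-like nuclei, against 0.633% of all genes. Among them were Rpl4 (log2 fold change 1.44 ± 0.26, SE; edgeR, adjusted p = 0.0368), Rps2 (1.50 ± 0.29, SE; edgeR, adjusted p = 0.0498) and Rpl36a (1.23 ± 0.24, SE; edgeR, adjusted p = 0.0492). DESeq2 without the block also called 4, against 1.76% of all genes (0.513% over the classes together), namely Rps2, Rpl4, Rplp0 and Rps3a with adjusted p from 0.0291 to 0.0467. Without the filter on low counts edgeR called 16, against 1.7% of all genes. The smallest fold changes in SMC-like nuclei belonged to members outside the core, Rpl7l1 (0.14), Rps19bp1 (0.16) and Rps27l (0.22).

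The mitochondrial share of SMC-like nuclei moved along, at 0.915%, 0.365% and 0.630% in CON and 2.23%, 1.68% and 1.01% in SAP, with no overlap. It did not overlap in 11 of the 19 clusters, this one included, and its part was not tested. At the 1% mitochondrial limit the ribosomal protein share of SMC-like nuclei was 2.83%, 1.05% and 1.53% in CON rats, and 3.55%, 1.50% and 4.21% in SAP rats, where SAP replicates 1 and 2 kept 10 and 22 nuclei. It was still higher in 3 of 3 pairs, and 82 of 83 tested members had a fold change above 0, against 48.2% of all genes, with a median of 0.59. Leaving out each library in turn kept the median between 0.67 and 1.53, and the highest value came without CON replicate 1.

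Paneth-like nuclei gave no direction for the single genes. Of 85 tested members, 45 had a fold change above 0 and 40 below, against 45.7% of all genes above 0, with a median of 0.01. This depended on the scaling. With the library total alone the median was 0.64 and 84 members were above 0, against 61.2% of all genes, a setting that moved the median of all genes from −0.04 to 0.12. With the replicate block the median was 0.75, and at the 1% mitochondrial limit it was −0.82 with 1 of 85 members above 0, against 40.6% of all genes. It was 1.93, −0.46 and −0.39 without CON replicates 1, 2 and 3. Without SAP replicates 1, 2 and 3 it was −0.63, 0.14 and 0.23, and without nuclei marked as doublets −0.11.

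In the remaining classes the medians of the members ran from 0.33 in goblet-like to 0.82 in B-like nuclei. Stem-like and T-like nuclei each had 86 of 86 tested members above 0 with a median of 0.75, against 52.4% and 53.1% of all genes, and TA-like nuclei a median of 0.63. Over all classes, edgeR called 0 of 1215 pairs of member and class, against 0.016% of all pairs of gene and class, and with the block it called 7, against 0.108%, the 4 of SMC-like nuclei and 3 more. Rps27 in B-like nuclei stood at 331 CPM, 69.8 CPM and 111 CPM in CON and at 770 CPM, 232 CPM and 247 CPM in SAP, on 7 to 391 UMIs per library. It was called with the block (log2 fold change 1.29 ± 0.30, SE; edgeR, adjusted p = 0.0400) and not without it (1.13 ± 0.61, SE; edgeR, adjusted p = 0.999), where the block called 0.432% of all genes. In endothelial-like nuclei the block called 0.279% of all genes, among them Rps3a (1.52 ± 0.34, SE; edgeR, adjusted p = 0.0358) and Rps21 (1.32 ± 0.31, SE; edgeR, adjusted p = 0.0487), and without it both had an adjusted p of 0.963.

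Nuclei of 1 library differed widely. Each nucleus was thinned to 1200 UMIs, so that all had the same depth. The median share per nucleus was 2.58%, 0.583% and 0.667% in CON rats, and 3.25%, 1.00% and 1.00% in SAP rats. In CON replicate 1 the range from the 5th to the 95th percentile was 1.08% to 5.67%, in SAP replicate 3 it was 0.333% to 5.00%, and the highest nucleus of all reached 25.5%. The variance over nuclei was 5.52 to 27.9 times that of binomial counting. Beyond counting error the coefficient of variation was 0.608, 0.745 and 1.06 in CON rats, and 0.482, 0.762 and 1.21 in SAP rats, with no difference between groups beyond the spread of the libraries (exact two-sided permutation test, p = 0.9).

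Nuclei with more than 5% of their UMIs from ribosomal protein genes made up 7.19%, 0.272% and 1.26% of CON and 14.1%, 1.39% and 4.92% of SAP libraries. In SAP replicate 3, SMC-like nuclei were 60.8% of these and 8.15% of all nuclei. In CON replicate 1, Paneth-like nuclei were 35.6% of these and 10.9% of all nuclei. The classes were not the same in each library. In SAP replicate 1, TA-like nuclei were 32.1% of these and 21.4% of all nuclei. Paneth-like nuclei were 24.1% of these there, and SMC-like nuclei 9.80%. The clusters accounted for 14.0% to 30.1% of the variance over nuclei in a library, so most of it lay within clusters. SMC-like nuclei of SAP replicate 3 had a median of 2.92% with quartiles at 1.00% and 7.33%, while in enterocyte-like nuclei the variance was 2.18 to 6.62 times that of counting.

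**Figure D5:**
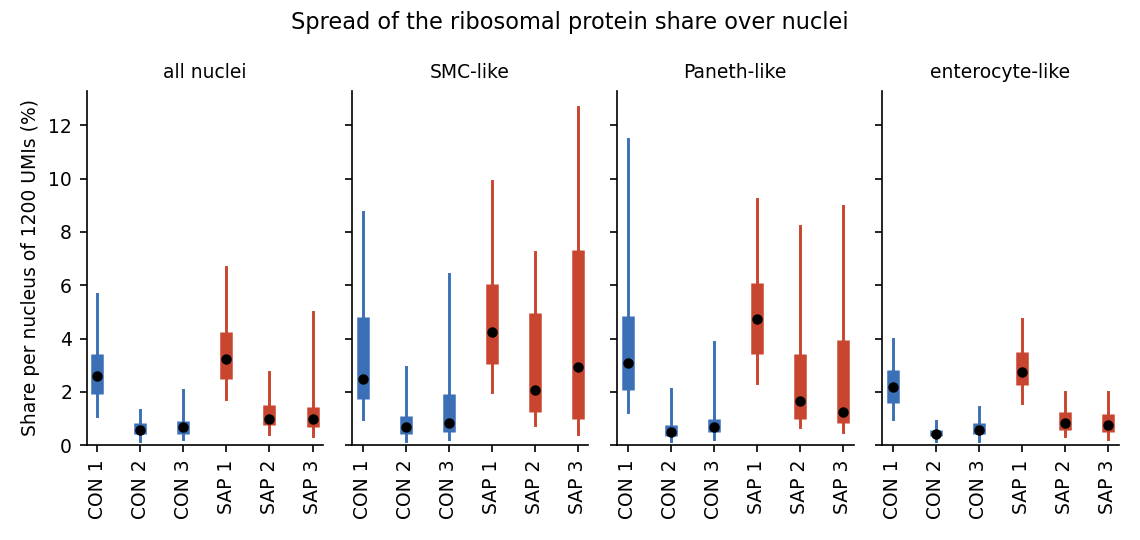
Share (%) of 1200 thinned UMIs per nucleus from ribosomal protein genes, by library, in all nuclei and in 3 classes. Points are medians, bars run between the quartiles and lines from the 5th to the 95th percentile; SMC-like nuclei of SAP replicate 3 spread furthest, with quartiles at 1.00% and 7.33%.

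The subunits went together in single nuclei. Across the nuclei of a library, which share its depth and are no replicates, the shares of large-subunit and small-subunit genes correlated with r from 0.743 to 0.945. The member share correlated with the mitochondrial share with r from 0.297 to 0.446 and with the log of the depth with r from −0.08 to 0.09.

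The other genes of translation were described from fixed lists. Of 18 translation factors and other TOP mRNAs, 13 had a fold change above 0 over all nuclei, with a median log2 fold change of 0.33, and none was called by edgeR. Elongation factor Eef2 went from 261 ± 208 CPM to 520 ± 256 CPM (SD, n = 3 each; log2 fold change 1.00 ± 0.62, SE), and Fau (0.59), Tpt1 (0.59) and Eef1b2 (0.58) followed. The list gave 0.213% of UMIs in CON and 0.296% in SAP, higher in 3 of 3 pairs. In SMC-like nuclei 18 of 18 were above 0, with a median of 0.91.

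Genes that build ribosomes or control their mRNAs did not share this direction in their median fold change. Of 33 ribosome biogenesis genes, 10 were above 0, with a median of −0.20, and Utp20, of the small-subunit processome, went from 105 ± 24.6 CPM to 51.1 ± 17.6 CPM (−1.04 ± 0.33, SE; edgeR, adjusted p = 0.545). Nop58 (−0.65), Nop2 (−0.60) and Wdr12 (−0.59) were the next. Of 15 genes of the mTORC1 pathway and TOP mRNA control, 3 were above 0, with a median of −0.25, and Rptor, which recruits substrates to mTORC1, had −0.60 ± 0.24 (SE; edgeR, adjusted p = 0.570), followed by Eif4g1 (−0.56), Deptor (−0.51) and Eif4e (−0.49). Of 74 tested mitochondrial ribosomal protein genes, 20 were above 0, with a median of −0.13, and Mrps7 (−0.83), Mrps27 (−0.82), Mrps18b (−0.80) and Mrpl4 (−0.80) had the largest changes in size. The 13 mitochondrial transcripts were all above 0, with a median of 1.66, and COX1 had 1.79 ± 0.69 (SE; edgeR, adjusted p = 0.566). By share of UMIs, the biogenesis, mTORC1 and mitochondrial ribosomal protein lists were higher in SAP only in replicate 3. The log2 ratios of SAP over CON were −0.10, −1.08 and 0.37 for biogenesis and −0.27, −0.78 and 0.03 for mTORC1. For mitochondrial ribosomal protein genes they were −0.12, −0.65 and 0.14. Between groups p was 0.8, 0.3 and 0.4 (exact two-sided permutation tests). No gene of these lists was called, and the difference between the lists was not tested.

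Among the genes whose levels followed the ribosomal protein genes most closely over 90 sums of 1 class in 1 library were Rack1 (Pearson's r = 0.960), Fau (0.938), Tpt1 (0.908), Hsp90ab1 (0.894), Eef1b2 (0.888), Oaz1 (0.877), Naca (0.871), RGD1561636 (0.867) and Cox4i1 (0.867), out of 10508 genes compared. The points share 6 libraries, so this describes the libraries as well as the classes. Rack1 and Fau, both constituents of the 40S subunit, were not among the genes counted in the module, and Rack1, in CPM without TMM, stood at 271 CPM, 67.5 CPM and 103 CPM in CON and at 344 CPM, 144 CPM and 169 CPM in SAP.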

How the data were processed

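The authors counted UMIs with dnbc4tools on the mRatBN7.2 assembly and deposited the UMI counts per gene and barcode of 6 libraries without normalization; the submitters' notes also name Seurat 4.3.0. Nuclei passed with at least 1200 UMIs, at least 500 genes and at most 5% mitochondrial UMIs. No read-level processing was redone. The members and lists were chosen with earlier results of these data known.

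Counts were log-normalized with scanpy 1.11.5 (Python 3.11.15), and 2000 variable genes without the members, 30 principal components, a numpy version of Harmony, 20 neighbours and Leiden clustering (leidenalg 0.10.2, resolution 0.8) gave the clusters. Mitochondrial transcripts and genes beginning Defa, RT1-, Reg3, Mrpl or Mrps were left out of the variable genes as well. A cluster was named when its marker score was at least 0.5 and led the next class by at least 0.8, with at least 3 markers detected. Scrublet's automatic threshold marked 0% of nuclei, so in each library the top 5% by score (2048 nuclei in all) were marked and kept, and their removal was an alternative. Barcode names were serial labels, so barcodes shared between libraries could not be counted.

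Shares are UMIs of the members over all UMIs, compared by exact permutation tests with the rat as the unit. Summed counts were tested with edgeR 4.0.16 under R 4.3.3 (filterByExpr, TMM, robust quasi-likelihood, Benjamini-Hochberg adjustment over all genes tested) and, as an alternative, with DESeq2 1.42.0. Other alternatives were the scaling, the filter, the replicate block, each library left out, the 1% mitochondrial limit, the denominator, the members counted and the clustering. The fit was tested on simulated counts with a single level of spread for all genes. Apart from the genes changed on purpose, the simulated libraries differed by their totals only. The libraries here differ in more than that, which the simulation does not cover. Intervals cover counting error only. CPM of the fits, over all nuclei and in 1 class, are TMM-scaled; those that compare classes, and that of Rack1, are not.

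CON and SAP libraries of the same number deviated together from their group means (r over genes of 0.635, 0.232 and 0.474, against −0.630 to 0.0506 for other pairs), so the numbers were taken to pair the samples. Deviations from a group mean cancel out within the group. A positive value for same-number pairs thus lowers the other pairs by construction, and their low values are no separate evidence. No label states a pairing, and it was taken from the same counts that the block was then used to test. Genes were named by rule: the 5 largest and 5 smallest fold changes, the paralogs with their partners, Rpsa, Rplp0, Rplp1 and Rplp2, the 5 core genes with the widest range over classes, members called in a class, the 10 genes most like the module, and up to 4 genes per other list. Some genes that this rule names are not reported here.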

Additional observations from a re-analysis of the deposited data

Results flagged for a closer look

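In SAP replicate 1, ribosomal protein genes took 5.46% of the UMIs of the 23026 barcodes that failed the limits, which no gene test and no share of passing nuclei used. The highest control library stood at 3.65%. Of these, the barcodes with fewer than 1000 UMIs had 5.63%, while those of CON replicate 2, the other library that listed such barcodes, had 0.750%. Both values were picked out because they lie above the controls in barcodes that did not pass the limits. The mitochondrial share of the failed barcodes was 3.51% in SAP replicate 1 and 1.54% in CON replicate 1.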

How the results depend on the processing

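Counted over all classes, the calls of members were 0 with edgeR, against 0.016% of all pairs of gene and class. They were 4 with DESeq2, against 0.513%, and 7 with the replicate block, against 0.108%, and the block changed no other call. With every gene that had a count they were 16, all in SMC-like nuclei, where 1.7% of all genes were called. The share in SAP less that in CON over all nuclei ran from −0.0876 to 1.37 percentage points when each library was left out in turn. The log2 fold change of Rpl31 was 0.0138 with the library total alone and 0.14 with the block. Against all other nuclei, the log2 ratio of the fibroblast-like share was 0.78 without integration, and that of the goblet-like share was −0.0076 at resolution 0.4, −0.18 at resolution 1.2 and −0.045 without integration. Leaving out each library in turn, the log2 fold change of Rpl12 ran from −1.22 to 1.22, of Rpl31 from −1.21 to 1.58, of Rpl31l4 from −1.28 to 0.88, of Rpl7l1 from −0.30 to 0.013, of Rps27l from −0.76 to 0.79 and of Rps3a from −0.0187 to 1.87. The difference of the share ran from −0.0452 to 1.41 percentage points in goblet-like, from −0.215 to 1.50 in TA-like and from −0.104 to 0.955 in enterocyte-like nuclei, and the SAP effect on the epithelial over the immune log2 ratio from −0.39 to 0.15. The log2 ratio against other nuclei ran from −0.20 to 0.0057 in B-like, −0.19 to 0.0024 in TA-like, −0.16 to 0.0117 in enteroendocrine-like, −0.0404 to 0.0681 in goblet-like and −0.0688 to 0.16 in stem-like nuclei. The cause was not tested. Of the main results, 86 values under other settings stayed the same, 3 counts moved and 1 value reversed. A count stayed the same when it was equal or close to the main count. The spread did so when its median moved by less than its SD over the libraries. Other values did so when they kept direction and side of the threshold. Of the rest, 517 kept both and 32 reversed. Exact tests of a share between groups could not pass 0.05 under any setting, so their side was fixed in advance. Tests of a class against all others could pass only if most classes reached the smallest p together. With a library left out they could not pass at all. The 1% limit left 8 of 15 classes for the shares. Equal class weights and the Paneth-like class without cluster 7 were chosen after seeing the data. With 3 rats a group, the exact permutation test of a share could not go below 0.1, and in small classes some libraries gave under 10 UMIs of a member.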

Other observations

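Some classes had fewer than 10 nuclei in a library and entered no comparison. Neutrophil-like nuclei, 8 to 48 per library, had a ribosomal protein share of 2.94%, 1.203% and 1.49% in CON replicates 1, 2 and 3 and of 2.95%, 2.11% and 3.00% in SAP. Mesothelial-like nuclei, from the outer lining of the gut, had 2.16%, 0.630% and 0.962% in CON and 4.77%, 1.94% and 1.73% in SAP, on 4 to 62 nuclei. Fat-like nuclei, named from adipocyte markers, had 1.93%, 1.14% and 0.641% in CON and 4.77%, 1.26% and 1.08% in SAP, on 2 to 24 nuclei.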
